A study of Arabidopsis thaliana with 12 samples.

Results

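Plants make most of their ascorbate (vitamin C) from D-mannose and L-galactose, and 6 Arabidopsis thaliana genes of that route were followed here in whole seedlings: VTC1, GME, VTC2, VTC5, VTC4 and GLDH. They were selected by name and locus, and all 6 were found among the 33602 gene transcripts listed in each library and passed the filter on low counts. The seedlings were 10 days old and carried either the wild-type Col-0 background or the mutation atrx-2, and each genotype was grown in light of 130 µmol, called normal, or of 30 µmol, called low, with 3 libraries for each of the 4 groups. All groups shared greenhouse growth at 21 °C in days of 16 h light and 8 h dark. The nature of the atrx-2 allele, the hour of harvest and whether the numbered replicates came from separate cultures were not stated in the labels, so the p-values measure the spread between these libraries, which may be technical.

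In this route VTC1 makes GDP-mannose, which GME converts to GDP-L-galactose. VTC2 and its paralogue VTC5 are GDP-L-galactose phosphorylases, which catalyse the first step committed to ascorbate and are regarded as its main point of control. VTC4 removes the phosphate from L-galactose phosphate and also acts on myo-inositol phosphate. L-galactose dehydrogenase (GalDH) then makes L-galactonolactone, which the mitochondrial enzyme GLDH oxidises to ascorbate. GLDH is also needed for the assembly of respiratory complex I. Ascorbate removes peroxide formed in photosynthesis, and leaves are known to hold more of it in strong light than in shade. ATRX, the gene mutated in atrx-2, encodes a chromatin remodeller that helps to place the histone variant H3.3.

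The upstream sequences of 3 genes are shown: VTC2, which had the largest fall in low light, VTC5, its paralogue, which encodes the same enzyme and fell less, and VTC4, which rose. Each sequence holds the 250 bases before the annotated gene start in the RefSeq annotation of TAIR10.1, written 5′ to 3′ on the strand of the gene, and none overlaps an annotated exon. Capitals mark matches to the light-associated I-box (GATAAG, read on both strands, so CTTATC on the other) and to the GT1 box (GGTTAA).
VTC2: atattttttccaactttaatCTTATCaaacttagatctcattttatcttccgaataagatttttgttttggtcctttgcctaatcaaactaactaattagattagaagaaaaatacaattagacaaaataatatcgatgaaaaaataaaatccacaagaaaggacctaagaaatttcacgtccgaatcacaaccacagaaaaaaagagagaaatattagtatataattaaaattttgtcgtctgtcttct
VTC5: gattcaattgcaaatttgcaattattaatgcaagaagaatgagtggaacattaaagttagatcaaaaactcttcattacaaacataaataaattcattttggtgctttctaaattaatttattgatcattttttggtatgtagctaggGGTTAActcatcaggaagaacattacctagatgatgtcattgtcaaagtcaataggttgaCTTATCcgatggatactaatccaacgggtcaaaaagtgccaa
VTC4: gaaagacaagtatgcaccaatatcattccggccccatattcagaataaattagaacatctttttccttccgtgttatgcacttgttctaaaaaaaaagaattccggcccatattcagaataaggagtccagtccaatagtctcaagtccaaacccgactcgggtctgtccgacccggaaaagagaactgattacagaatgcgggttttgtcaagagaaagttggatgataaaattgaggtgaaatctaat
The VTC2 window is chr4:13501702-13501951 (minus strand), that of VTC5 is chr5:22368757-22369006 (plus strand) and that of VTC4 is chr3:629926-630175 (minus strand).

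An I-box match lay 230 to 225 bases before the start of VTC2 and 42 to 37 bases before the start of VTC5. A GT1 box lay 102 to 97 bases before the start of VTC5. No I-box or GT1 match lay in the windows of VTC1, VTC4, GLDH or GME. Among 26711 upstream windows of the same length, 12.2% held an I-box and 14.7% a GT1 box. The G-box CACGTG, searched on both strands, occurred in 0 of the 6 windows and in 6.58% of all windows. Its core ACGT, which is contained in the G-box and was not put in capitals, occurred in VTC1 and VTC2 and in 44.2% of all windows. The evening element AAAATATCT, also searched on both strands, occurred in 0 of the 6 and in 2.40% of all windows. These matches describe the letters of the windows and no binding was measured.

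VTC2 (AT4G26850, chr4:13498956-13501701) and VTC5 (AT5G55120, chr5:22369007-22371867) each have 7 exons. Their coding sequences of 1329 and 1296 bases were identical at 990 of 1283 aligned bases (77.2%). The longest run shared by both was 35 bases, starting at coding base 904 of VTC2 and 895 of VTC5. It is shown as the longest exact match between these coding sequences.
Shared run: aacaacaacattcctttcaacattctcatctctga
The reads were 50 bases long, and 0 of the 1848 exon windows of 50 bases in VTC2 and 0 of the 1619 in VTC5 had a second exact place in the genome. The same was true of 0 windows of 1162 in VTC1, 1288 in GME, 626 in VTC4 and 1933 in GLDH. The windows lie within single exons, so reads across exon junctions and inexact matches were not checked.

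The 6 normal-light libraries held 17473391 to 23899191 estimated counts each, and the 6 low-light libraries 13733302 to 21435587. ATRX had 537 to 905 counts per wild-type library and 6 to 20 per atrx-2 library, and fell by 5.81 in atrx-2 on the log2 scale, averaged over light (adjusted p = 1.62e-13 by edgeR's quasi-likelihood test). Green tissue, root and guard cell markers were present in all 12 libraries, whereas the floral genes AP3 and AG reached 0.336 and 0.509 CPM, the seed storage gene CRA1 reached 0.673 CPM and CRU3 had 0 counts. The share of ribosomal RNA was 3.73% to 8.67% in normal-light libraries but 9.81% to 16.7% in low-light ones, and that of chloroplast genes was 2.29% to 3.55% but 4.83% to 8.90%. The part of these shares in the light results was not tested beyond the scalings given below.

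The deposited TPM values, which are scaled for transcript length, allow the genes to be ranked by transcript level. In wild type under normal light, VTC2 (mean 198, range 154 to 245 TPM) and GME (mean 190, range 176 to 202 TPM) were the most abundant, and their ranges overlapped. VTC1 followed at 96.8 TPM. VTC4 (16.9 to 22.9 TPM) and VTC5 (16.0 to 20.2 TPM) were lower and overlapped each other, and GLDH, which encodes the last enzyme, was lowest at 8.72 TPM. The 3 abundant genes act before or at the committed step, but VTC5, which acts at the same step as VTC2, was among the lower ones.

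Under low light the order changed. In wild type GME led at 114 TPM (110 to 119), VTC1 was next at 60.0 TPM (53.8 to 64.4), and VTC2 came after both at 48.8 TPM (43.2 to 52.3), and these 3 ranges did not overlap. VTC4 stood at 28.1 TPM and VTC5 and GLDH at 10.98 and 8.51 TPM. In atrx-2 the order was the same, with means of 119 TPM for GME, 66.8 for VTC1, 48.8 for VTC2, 41.7 for VTC4, 11.8 for VTC5 and 10.7 for GLDH. VTC2 and VTC4 overlapped there, as did VTC5 and GLDH. In atrx-2 under normal light the order was that of wild type, with VTC2 at 198 TPM, GME at 183, VTC1 at 93.0, VTC4 at 28.1, VTC5 at 17.6 and GLDH at 9.09.

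**Figure D1:**
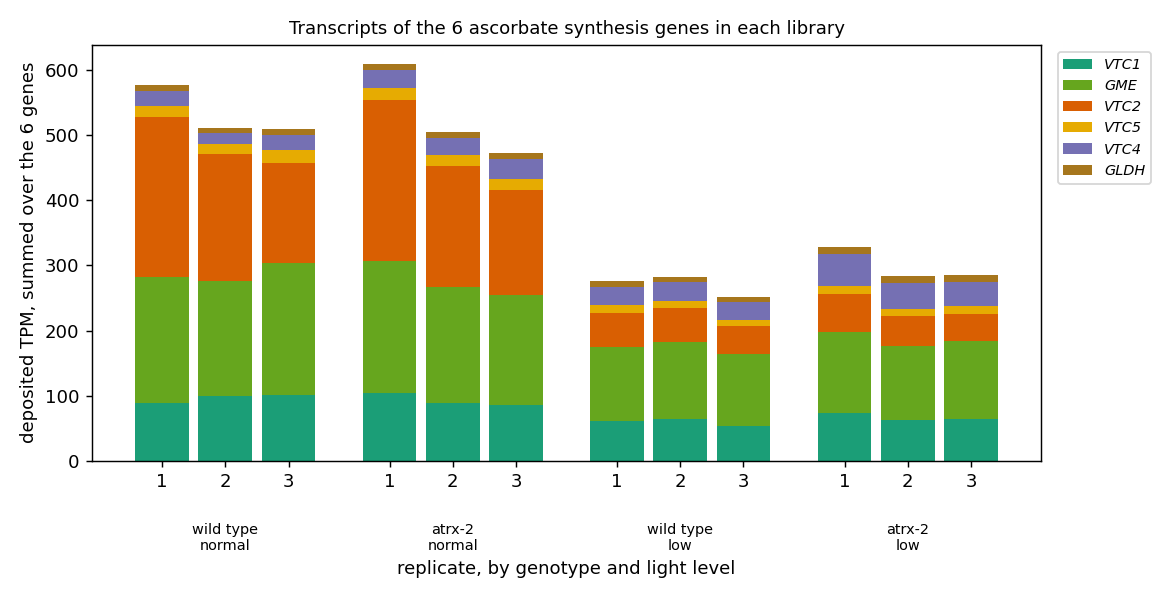
Deposited TPM of the 6 genes stacked for each of the 12 libraries (vertical axis, TPM; horizontal axis, replicate number within each genotype and light level). The stacks reach 472 to 609 TPM under normal light and 252 to 328 TPM under low light, and the VTC2 segment shrinks most. TPM is scaled to the library total, which held more ribosomal RNA and chloroplast transcripts in low light.

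The 6 genes together amounted to 532 ± 38.1 TPM in wild type and 529 ± 71.2 TPM in atrx-2 under normal light, and to 270 ± 16.6 and 299 ± 25.2 TPM under low light (SD, n = 3 each). VTC2 supplied 37.0% ± 6.28 of that sum in wild type and 37.1% ± 3.26 in atrx-2 under normal light, and 18.04% ± 0.878 and 16.3% ± 1.69 under low light. Without VTC2 the sum was 334 ± 19.9 and 331 ± 27.0 TPM under normal light and 222 ± 12.1 and 250.3 ± 17.2 TPM under low light. The share of VTC2 and the sum without it were both lower in each low-light library than in any normal-light library. The sums, unlike the shares, depend on the library total, which held more ribosomal RNA and chloroplast transcripts in low light. GLDH in wild type had 21.3 CPM under normal and 24.4 CPM under low light, but 8.72 and 8.51 TPM. The part of this scaling in the fall of the sums was not tested. VTC4 supplied 3.92% ± 0.589 of the sum in wild type under normal light, 5.39% ± 0.861 in atrx-2 under normal light, 10.4% ± 0.164 in wild type under low light and 13.9% ± 0.793 in atrx-2 under low light.

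The comparison of low with normal light within each genotype asked how the route responds to light in wild-type and atrx-2 seedlings. Transcripts of VTC1, GME, VTC2 and VTC5 fell in low light in both genotypes, VTC2 by far the most at 3.49-fold in wild type and 3.76-fold in atrx-2. VTC4 rose in both genotypes, 1.58-fold and 1.60-fold. GLDH rose in atrx-2 (1.28-fold) and did not pass in wild type. In wild type 5 of the 6 genes passed the test (4 lower, 1 higher), against 34.2% of all 20783 genes tested (17.6% lower, 16.6% higher). In atrx-2 all 6 passed (4 lower, 2 higher), against 33.1% (16.9% lower, 16.1% higher). A change counts as a rise or fall at a Benjamini-Hochberg adjusted p under 0.05 in edgeR's quasi-likelihood test over all tested genes. Where libraries of different groups are said not to overlap, this is a description without a test. The share of all tested genes whose groups separate in this way is not given. In whole seedlings, fewer cells of a type and less RNA per cell cannot be told apart.

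**Figure D2:**
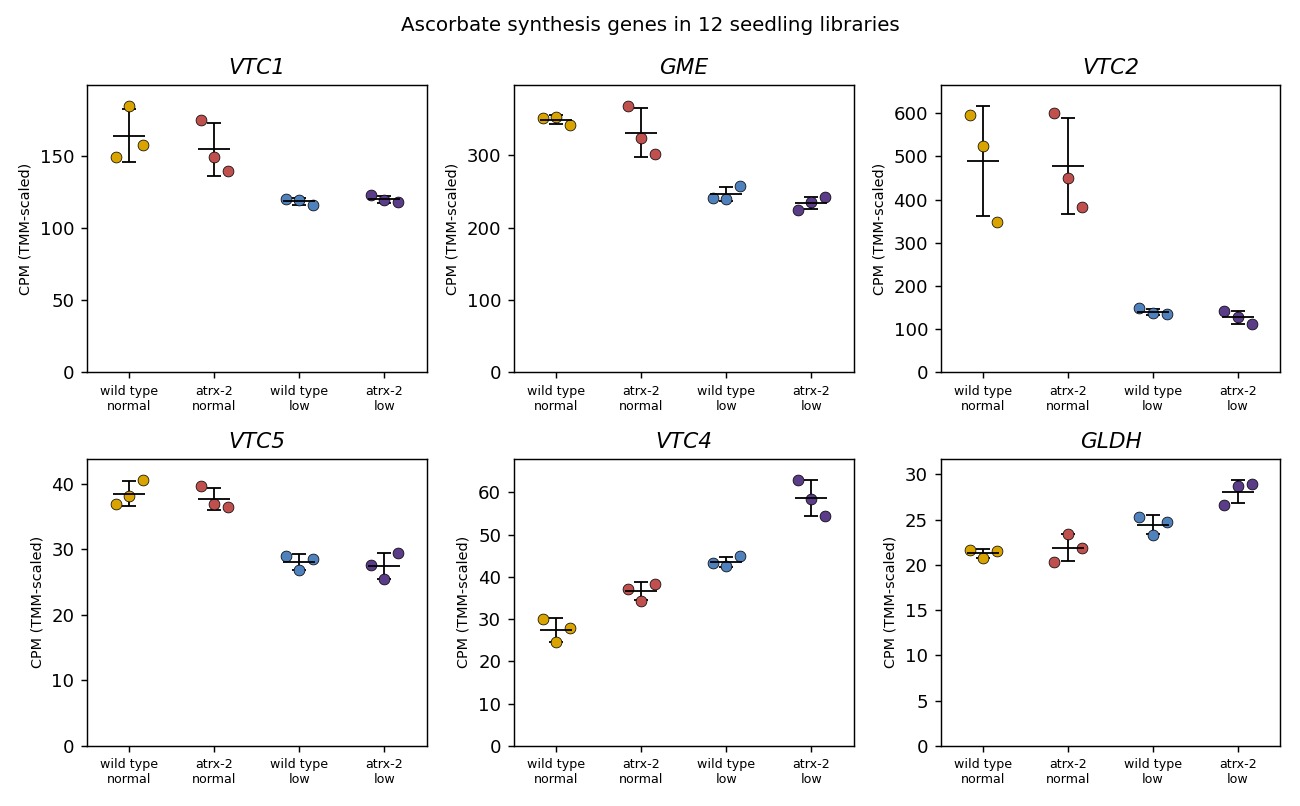
CPM scaled by TMM factors (vertical axes, from 0) for each gene in every library, by genotype and light level; points are libraries, and bars give the mean and SD of 3 libraries. VTC1, GME, VTC2 and VTC5 are lower in low light with no overlap, and VTC4 differs between all 4 groups with no overlap. This separation is a description without a test, and its share among all tested genes is not given.

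VTC1 (AT2G39770, chr2:16588556-16591032, plus strand, 6 exons) encodes the GDP-mannose pyrophosphorylase. Its levels in wild type were 149, 184 and 158 CPM under normal light and 120, 119 and 116 CPM under low light. In atrx-2 they were 175, 149 and 139 CPM under normal light and 122, 120 and 118 CPM under low light. Every low-light library was below every normal-light library, and the low-light libraries were closely grouped. The fall on the log2 scale was -0.47 ± 0.09 in wild type (SE; adjusted p = 0.00144) and -0.36 ± 0.09 in atrx-2 (adjusted p = 0.00768).

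GME (AT5G28840, chr5:10862016-10864946, minus strand, 7 exons), the epimerase that makes GDP-L-galactose, had 353, 354 and 343 CPM in wild type under normal light and 241, 240.2 and 258 CPM under low light. In atrx-2 it had 368, 325 and 302 CPM under normal light and 225, 235 and 243 CPM under low light. The light levels did not overlap in either genotype. GME fell by 0.51 on the log2 scale in wild type (SE 0.08; adjusted p = 0.000191) and by 0.50 in atrx-2 (SE 0.08; adjusted p = 0.000207).

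VTC2 had 596, 524 and 347 CPM in wild type under normal light and 148, 137 and 135 CPM under low light. In atrx-2 it had 599.7, 449.7 and 382 CPM under normal light and 141, 128 and 111 CPM under low light. The lowest normal-light library of either genotype exceeded the highest low-light library, and the spread was much wider under normal light, at an SD of 128 CPM in wild type against 6.97 CPM under low light. The log2 change was -1.80 ± 0.18 in wild type (SE, 95% interval -2.20 to -1.41, adjusted p = 4.08e-06) and -1.91 ± 0.18 in atrx-2 (95% interval -2.31 to -1.52, adjusted p = 2.28e-06). Counted from the lowest log2 change among all 20783 genes, VTC2 ranked 265 in wild type and 228 in atrx-2.

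VTC5, the paralogue of VTC2, had 36.8, 38.03 and 40.6 CPM in wild type under normal light and 29.0, 26.8 and 28.4 CPM under low light. In atrx-2 it had 39.6, 36.9 and 36.5 CPM under normal light and 27.5, 25.4 and 29.4 CPM under low light. The light levels were separate in both genotypes. The log2 change was -0.46 ± 0.08 in wild type (SE; adjusted p = 0.000362) and -0.45 ± 0.08 in atrx-2 (adjusted p = 0.000347).

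The balance between the paralogues therefore moved with light. VTC2 made up 91.5% ± 2.70 of the summed VTC2 and VTC5 TPM in wild type and 91.7% ± 1.40 in atrx-2 under normal light (SD, n = 3 each). Under low light it made up 81.6% ± 0.642 and 80.3% ± 2.80. The share ranged from 88.4% to 93.5% over the normal-light libraries of both genotypes and from 77.1% to 82.1% over the low-light libraries, so the ranges did not overlap. The ratio of VTC2 to VTC5 TPM was 11.4 ± 3.46 and 11.2 ± 2.11 under normal light and 4.44 ± 0.186 and 4.14 ± 0.677 under low light. The ratio of GME to VTC2 TPM moved from 1.00 ± 0.278 to 2.35 ± 0.187 in wild type and from 0.942 ± 0.118 to 2.49 ± 0.397 in atrx-2. These shares and ratios are descriptions without a test.

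VTC4 (AT3G02870, chr3:627512-629925, minus strand, 12 exons), the phosphatase gene, had 30.1, 24.5 and 27.9 CPM in wild type under normal light and 43.3, 42.5 and 44.9 CPM under low light. In atrx-2 it had 37.2, 34.3 and 38.4 CPM under normal light and 62.9, 58.5 and 54.3 CPM under low light. Each low-light library was above each normal-light library of its genotype. VTC4 rose by 0.66 ± 0.09 on the log2 scale in wild type (SE; adjusted p = 3.78e-05) and by 0.68 ± 0.08 in atrx-2 (adjusted p = 2.46e-05). On the deposited TPM scale the same contrast was 20.9 to 28.1 TPM in wild type and 28.1 to 41.7 TPM in atrx-2.

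GLDH (AT3G47930, chr3:17684322-17687661, plus strand, 6 exons) had 21.6, 20.7 and 21.5 CPM in wild type under normal light and 25.3, 23.3 and 24.7 CPM under low light. In atrx-2 it had 20.4, 23.4 and 21.9 CPM under normal light and 26.6, 28.7 and 29.0 CPM under low light. The light levels were separate in both genotypes, by a narrow margin in wild type. The log2 change was 0.20 ± 0.08 in wild type (SE, 95% interval 0.04 to 0.36, adjusted p = 0.0573) and 0.36 ± 0.08 in atrx-2 (adjusted p = 0.00194). With library totals in place of TMM factors, a setting added after the data were seen that lowers the median of all genes by 0.18 in wild type and by 0.15 in atrx-2, the GLDH values were 0.02 (adjusted p = 0.885) and 0.20 (adjusted p = 0.100), so the call in atrx-2 was lost. On the TPM scale, which carries no such factors, GLDH stood at 8.72 and 8.51 TPM in wild type and at 9.09 and 10.7 TPM in atrx-2 under normal and low light.

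**Figure D3:**
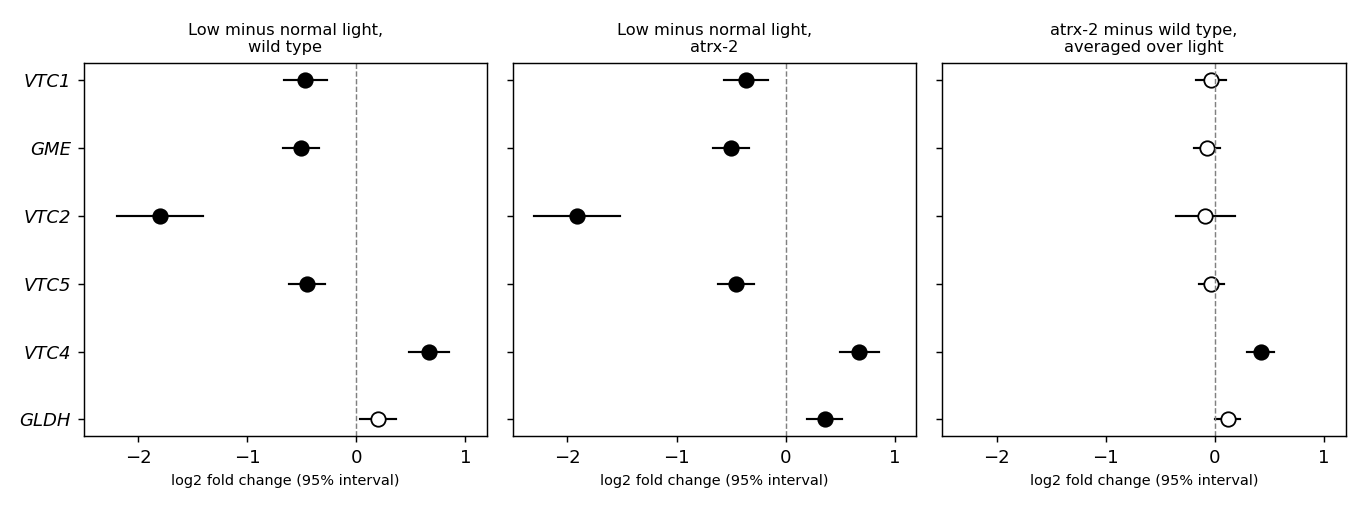
Log2 fold changes (horizontal axes) of the 6 genes with 95% intervals for light in each genotype and for genotype averaged over light; filled points passed an adjusted p of 0.05. VTC2 is at -1.80 and -1.91 for light, and VTC4 is the filled point for genotype, at 0.42.

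Setting atrx-2 against wild type asked whether transcripts of the route differed between the genotypes. VTC4 was the gene that differed, in the average over light. As atrx-2 was the only mutant, an effect of ATRX and other differences between the lines cannot be told apart. It was higher in atrx-2 at both light levels by nearly the same factor, 1.33-fold under normal light (27.5 ± 2.80 against 36.6 ± 2.11 CPM) and 1.35-fold under low light (43.6 ± 1.2 against 58.6 ± 4.29 CPM; SD, n = 3 each). Within each light level every atrx-2 library lay above every wild-type one. Averaged over light VTC4 rose by 0.42 ± 0.06 on the log2 scale (SE, 95% interval 0.29 to 0.55, adjusted p = 0.00554 by edgeR), and it ranked 19 by p among all tested genes.

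Averaged over light 1 of the 6 genes passed, VTC4, against 0.308% of all tested genes, or 0.164% in that direction. At a single light level 0 of 6 passed under normal light, where 0.0674% of all genes did, and 0 of 6 under low light, where 0.0722% did. VTC4 itself had log2 0.41 ± 0.09 (adjusted p = 0.120) and 0.43 ± 0.08 (adjusted p = 0.106) in those contrasts. At an unadjusted p under 0.05 there were 1 and 2 of the 6, against 8.62% and 6.54% of all genes. DESeq2 called 1 in each, VTC4, with adjusted p = 0.0150 and adjusted p = 0.0117. On the deposited TPM scale VTC4 ranged from 16.9 to 22.9 in wild type and 26.1 to 29.9 in atrx-2 in normal light, and from 26.6 to 29.2 and 37.5 to 48.2 in low light, so the genotypes were separate on that scale too.

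The phosphatase gene adjoins AT3G02860, which lies on the same strand with a gap of 20 bases. That neighbour had an averaged genotype log2 of 0.09 ± 0.07 (SE; adjusted p = 0.702) and light values of 0.11 (adjusted p = 0.446) and -0.04 (adjusted p = 0.817). The nearest tested homologues of VTC4 were the plastid phosphatase gene IMPL1 (AT1G31190) and the histidinol phosphatase gene IMPL2 (AT4G39120), whose averaged genotype values were -0.02 and 0.04. IMPL1 fell in low light in atrx-2 (-0.33 ± 0.10, adjusted p = 0.0201) and had -0.20 ± 0.10 in wild type (adjusted p = 0.142). IMPL2 passed in neither.

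The other 5 genes did not pass for genotype in any of the 3 contrasts. Averaged over light the values on the log2 scale were -0.03 for VTC1 (95% interval -0.17 to 0.11), -0.07 for GME (-0.19 to 0.04), -0.09 for VTC2 (-0.36 to 0.18), -0.03 for VTC5 (-0.15 to 0.08) and 0.12 for GLDH (0.01 to 0.24). Their adjusted p-values from edgeR ran from 0.476 for GLDH to 0.906 for VTC1. The VTC2 interval was the widest of the 5. For GLDH under low light no atrx-2 library overlapped a wild-type library (24.4 ± 1.06 against 28.1 ± 1.28 CPM), but the log2 of 0.20 ± 0.08 did not pass (adjusted p = 0.638).

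Whether the light response differed between the genotypes was tested as an interaction. None of the 6 passed in edgeR, against 0.00481% of all genes, and 0 were called by DESeq2. At an unadjusted p under 0.05 there were 0 of the 6, against 4.40% of all genes, so these counts do not set the 6 apart. The interaction on the log2 scale, atrx-2 minus wild type, was -0.11 for VTC2 (95% interval -0.65 to 0.43), 0.10 for VTC1 (-0.18 to 0.38), 0.16 for GLDH (-0.07 to 0.39), 0.01 for VTC4 (-0.24 to 0.27), 0.01 for GME (-0.23 to 0.24) and 0.0015 for VTC5 (-0.23 to 0.23). The call of GLDH in atrx-2 and its absence in wild type were thus not shown to differ.

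Similarity of pattern was measured as the root mean square difference between centred log2 CPM profiles over the 12 libraries, which share library preparation and light groups. Among the 6 genes VTC5 and GME were closest (0.08), followed by VTC1 and GME (0.10) and VTC1 and VTC5 (0.11). Among all tested genes GME ranked 14 by nearness to VTC5. By nearness to VTC1, GME ranked 58 and VTC5 ranked 120. The measure is not scaled by the spread of a profile, which was 0.23 to 0.26 for these genes, so profiles of small spread lie close. VTC2 and VTC4 were the most distant pair (1.30). The tested gene nearest to VTC2 was AO (AT5G14760), the aspartate oxidase of NAD synthesis, at 0.12, against a spread of 0.94 in the profile of VTC2 itself. AO changed by -1.86 and -1.85 in low light in wild type and atrx-2. RXW8 (AT1G58520) and the ammonium transporter gene AMT1;2 (AT1G64780) followed at 0.15 and 0.16.

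For VTC4 the nearest genes were AT4G09500 (0.13), AT3G03500 (0.14) and AT1G14580 (0.14), against a spread of 0.40. For GLDH they were AT3G62120, LCB1, which encodes a subunit of serine palmitoyltransferase, and STT3A, which encodes a subunit of oligosaccharyltransferase, at 0.05 each. For GME they were AT3G55640, AT5G13100 and AT2G34310 (0.05 to 0.06). For VTC1 they were AT5G66490, AT4G39520 and the drought-induced gene DI19 (0.06 to 0.07), and for VTC5 AT1G08110, AT4G02220 and APRR2 (0.04 to 0.06).

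The wider network was described with 63 genes in 9 lists, of which 57 passed the filter. In low light 30 of the 57 were called in wild type and 26 in atrx-2, against 34.2% and 33.1% of all tested genes. For genotype 0 of the 57 were called by edgeR or by DESeq2 in each of the 3 contrasts. At an unadjusted p under 0.05 there were 3 in normal light, 1 in low light and 1 in the average, shares below the 8.62%, 6.54% and 10.2% of all genes. Across all genes tested the median light log2 had values of -0.0049 (wild type) and 0.0069 (atrx-2), against -0.46 and -0.41 for the 6 synthesis genes. With library totals in place of TMM factors 6 of the 57 list genes rose and 23 fell in wild type, and 9 rose and 19 fell in atrx-2. No called list gene was called in the opposite direction under that scaling. The rises of PGI1, PLP, MUR1 and MDAR2 lost their call there in both genotypes, those of KJC2, GER2, MIOX1 and GULLO5 in wild type, and those of GalDH and MDAR3 in atrx-2.

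**Figure D4:**
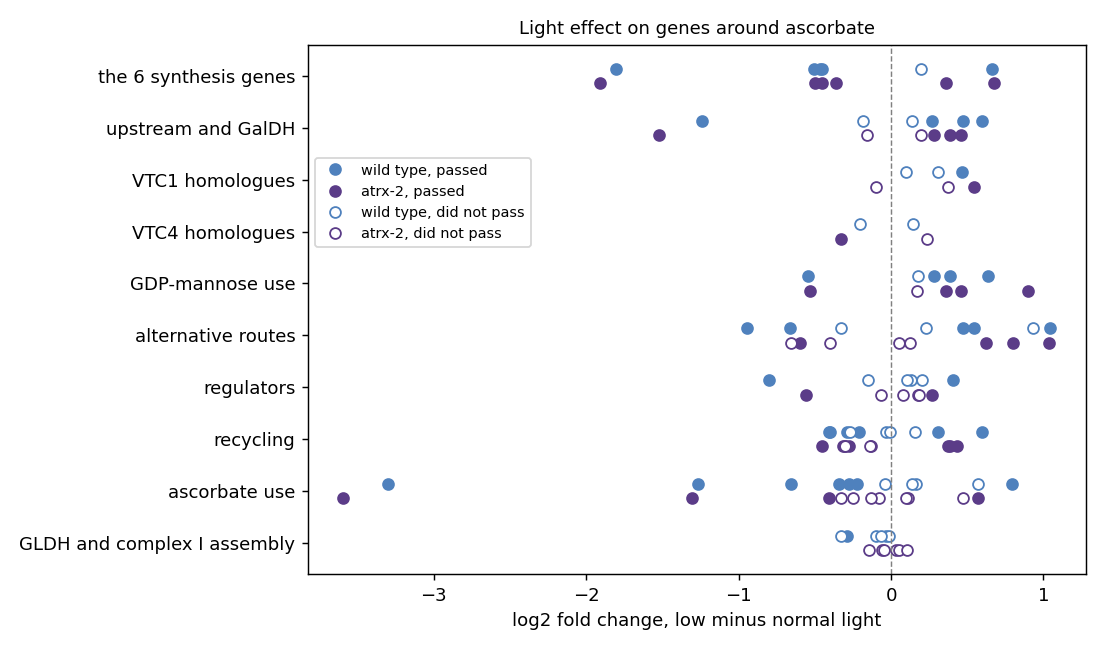
Log2 fold change in low light (horizontal axis) for the 6 synthesis genes and 9 lists of related genes (rows), blue for wild type and purple for atrx-2; filled points passed an adjusted p of 0.05. The points farthest to the left are the peroxidase gene APX2, which had 0 to 2 counts per low-light library, so that its fitted value depends on a small added count.

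Of the 6 genes that supply GDP-mannose or encode GalDH, 3 rose and 1 fell in each genotype, with medians of 0.20 and 0.24. With library totals 2 rose and 2 fell in wild type and 1 rose and 2 fell in atrx-2 (medians 0.03 and 0.08). PMI1, a phosphomannose isomerase gene, rose by 0.47 ± 0.08 in wild type (SE; adjusted p = 0.000309) and by 0.46 ± 0.08 in atrx-2. PMI2, which encodes a second phosphomannose isomerase, fell by 1.24 ± 0.16 in wild type and by 1.52 ± 0.16 in atrx-2, from 157 to 179 counts per wild-type library under normal light to 46 to 55 under low light. GalDH, the enzyme between VTC4 and GLDH, rose by 0.59 ± 0.09 and 0.39 ± 0.09. The plastid phosphoglucose isomerase gene PGI1 rose by 0.27 and 0.28. The cytosolic isomerase gene cPGI (-0.19 and -0.16) and the phosphomannomutase gene PMM (0.14 and 0.20) did not pass.

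Of the VTC1 homologues KJC2, a non-catalytic partner of the pyrophosphorylase, rose by 0.46 ± 0.11 and 0.54 ± 0.11. Its relative KJC1 had 0.10 and -0.10 and did not pass, nor did the VTC1-like gene AT4G30570 (0.31 and 0.37), and the VTC1-like gene AT3G55590 had 0 counts in all 12 libraries. Genes that draw on GDP-mannose for fucose and mannan had 3 rises and 1 fall among 5 in each genotype, with medians of 0.28 and 0.36. With library totals there were 1 rise and 1 fall in wild type and 2 rises and 1 fall in atrx-2 (medians 0.10 and 0.21). GMD1, a GDP-mannose dehydratase gene, rose by 0.64 ± 0.11 and 0.90 ± 0.11, GER2 of GDP-fucose synthesis by 0.39 and 0.46, and MUR1, the main dehydratase gene of shoots, by 0.28 and 0.36. The glucomannan synthase gene CSLA9 fell by 0.55 and 0.53.

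Proposed alternative routes to ascorbate begin from myo-inositol or gulonolactone. Of 8 tested genes 3 rose and 2 fell in wild type and 3 rose and 1 fell in atrx-2, with medians of 0.35 and 0.09. With library totals 1 rose and 2 fell in wild type (median 0.17), and in atrx-2 the counts were 3 and 1 with a median of -0.06, so its sign turned. MIOX2, a myo-inositol oxygenase gene, rose by 1.04 ± 0.20 and 0.80 ± 0.20, and MIOX1 by 0.54 and 1.03 (SE 0.18 each). GULLO6, a gulonolactone oxidase-like gene, fell by 0.95 ± 0.32 in wild type (adjusted p = 0.0332) and had -0.66 ± 0.33 in atrx-2 (adjusted p = 0.144). GULLO3 fell by 0.66 and 0.60, and GULLO5 rose by 0.47 and 0.62. MIOX5, GULLO1 and GULLO7 were not tested because of low counts.

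The list of regulators of the route also held the transporter gene AT4G00370. Of its 6 tested genes 1 rose and 1 fell in each genotype, with medians of 0.12 and 0.13. With library totals both medians turned sign (-0.06 and -0.03), with 0 rises and 2 falls in wild type and 0 rises and 1 fall in atrx-2. PLP, a PAS and LOV domain protein that binds VTC2 and VTC5, rose by 0.40 ± 0.09 in wild type (adjusted p = 0.00437) and by 0.27 ± 0.09 in atrx-2 (adjusted p = 0.0430). CML10, a calmodulin-like partner of phosphomannomutase, fell by 0.80 ± 0.17 and 0.56 ± 0.17. VTC3, a protein kinase and phosphatase fusion needed for normal ascorbate levels, had 0.13 and 0.08 and did not pass. AMR1 and ERF98 were not tested because of low counts.

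Of the 10 genes that regenerate ascorbate 2 rose and 4 fell in wild type and 3 rose and 3 fell in atrx-2, with medians of -0.12 and -0.21. With library totals 1 rose and 5 fell in wild type and 1 rose and 7 fell in atrx-2 (medians -0.30 and -0.36). The monodehydroascorbate reductase genes MDAR6 (0.60 and 0.43) and MDAR2 (0.31 and 0.39) rose in both genotypes, and the glutathione reductase gene GR1 fell in both (-0.40 and -0.45). The dehydroascorbate reductase gene DHAR1 fell by 0.41 ± 0.12 in wild type (adjusted p = 0.0141) and had -0.30 ± 0.12 in atrx-2 (adjusted p = 0.0595). MDAR3 rose by 0.38 ± 0.12 in atrx-2 (adjusted p = 0.0233) and had 0.16 ± 0.12 in wild type (adjusted p = 0.346).

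Of 11 genes for enzymes that use ascorbate 1 rose and 6 fell in wild type and 1 rose and 3 fell in atrx-2, with medians of -0.22 and -0.13. With library totals 1 rose and 6 fell in wild type, and 1 rose and 5 fell in atrx-2 (medians -0.40 and -0.28). The ascorbate oxidase family gene AT5G21100 fell by 1.27 ± 0.12 and 1.31 ± 0.12, and VDE, the violaxanthin de-epoxidase of photoprotection, rose by 0.79 ± 0.08 and 0.57 ± 0.08. The peroxidase family gene APX5 fell by 0.66 ± 0.19 in wild type and had -0.33 ± 0.19 in atrx-2 (adjusted p = 0.196), and APX6 fell by 0.34 and 0.41. The cytosolic peroxidase gene APX1 had -0.04 and -0.08 and did not pass. APX2 fell, from 9 to 22 counts per wild-type library under normal light to 0 to 2 under low light.

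Genes of complex I assembly and of its carbonic anhydrase domain, which share the GLDH-dependent step, showed 0 rises and 1 fall among 6 in wild type, the carbonic anhydrase gene AT1G19580 (-0.29 ± 0.10, adjusted p = 0.0420). In atrx-2 0 of the 6 passed, and the medians were -0.09 and -0.0049. With library totals 0 rose and 4 fell in wild type and 0 passed in atrx-2 (medians -0.26 and -0.16). GLDH had 0.20 and 0.36 in the same contrasts.

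Genes beside VTC2 were measured in the same light contrasts. AT4G26860, on the same strand 1351 bases away, fell by 0.71 ± 0.09 in wild type (SE; adjusted p = 1.94e-05) and by 0.74 ± 0.09 in atrx-2 (adjusted p = 1.27e-05). AT4G26840, on the opposite strand with a gap of 135 bases, fell by 0.34 ± 0.08 in wild type (adjusted p = 0.00519) and had -0.14 ± 0.08 in atrx-2 (adjusted p = 0.219). Whether the counting used strand was not stated. Of all tested genes 17.6% fell in wild type and 16.9% in atrx-2. Beside VTC1, which also fell, AT2G39780 had -0.09 and -0.02 and did not pass. Beside VTC5, AT5G55110 (0.03 and 0.83) and AT5G55125 (-0.22 and 0.11) did not pass either. A link between VTC2 and its neighbours was not tested.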

How the data were processed

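Per the labels' protocols, total RNA of whole seedlings was made into NEBNext Ultra II libraries and sequenced as single reads of 50 bases in a shared flow cell. The authors deposited estimated counts and TPM from kallisto 0.42 against TAIR10, per the submitters' processing notes. DESeq2 is named there too. Between 12.3% and 13.9% of the transcripts listed in a library had an estimated count that was not whole (tolerance 1e-06). All counts were rounded. VTC2 and VTC5 were not whole in 1 library each. Each file lists 33602 transcripts, 1 per gene, so isoforms are not resolved.

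Counts were fitted with edgeR 4.0.16 in R 4.3.3: filterByExpr by group (20783 genes), TMM factors, and the quasi-likelihood F test on 4 groups of 3 libraries with 8 residual degrees of freedom (biological coefficient of variation 10.4%). The 6 two-sided contrasts were adjusted by Benjamini-Hochberg over all tested genes, with a threshold of 0.05. Standard errors are the log2 change divided by the square root of F. The steps were tested on simulated counts. Deposited TPM served for levels and ratios and was not tested. Profiles used log2 CPM with a prior count of 2. Named genes are the 6 members in every comparison, up to 4 called members of each list with the largest change, the supply genes and homologues in full, ATRX, and the 3 nearest profiles. APX1, cPGI, VTC3 and genes that adjoin a member or were untested are named beside them, partly after their values were seen. The members, lists and tests were chosen with earlier results of these data known.

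Coordinates and sequences come from the RefSeq annotation of TAIR10.1, which held 32835 of the 33602 loci. The deposited tables hold no coordinates. Between replicate libraries the mean chi-square per gene was at least 6.04, with ribosomal RNA loci included. Genes of high count can dominate this mean. All 12 libraries were kept. Alternatives were DESeq2 1.42.0, other scaling factors, other filters, fewer libraries, a replicate block and leaving out each library.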

Additional observations from a re-analysis of the deposited data

How the results depend on the processing

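The VTC1, GME, VTC2, VTC5 and VTC4 light changes kept their call and direction in each genotype under all 21 alternatives, as did the averaged VTC4 genotype change (log2 0.38 to 0.47, adjusted p = 1.61e-06 to 0.0267). GLDH in low light passed in wild type in 3 of 21 alternatives and in atrx-2 in 20 of 21. The count of members that passed for genotype at a single light level was 1 with DESeq2 against 0 at each level, and the cause was not tested. Directions turned only for values that did not pass. With library totals, genotype values became 0.013 for VTC2 and 0.0082 for VTC5 under normal light, 0.036 for VTC5 under low light, and 0.019 for VTC1 and 0.022 for VTC5 averaged. Interaction values of VTC5 became -0.0084 (DESeq2), -0.0104 (RLE factors), -0.0101 (without organelle and ribosomal RNA loci), -0.0019 (replicate block) and -0.0030 (replicate block within light level), and those of GME -0.0050, -0.0056 and -0.0058 in the first 3 of these.

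Leaving out single libraries turned these values: under normal light VTC2 (-0.23 to 0.13), VTC1 (-0.18 to 0.0072), VTC5 (-0.0698 to 0.0086) and GLDH (-0.0108 to 0.0874); under low light VTC1 (-0.0057 to 0.0311) and VTC5 (-0.0845 to 0.0129); averaged VTC1 (-0.0835 to 0.0122); and the interactions of VTC2 (-0.274 to 0.091), VTC4 (-0.0534 to 0.0876), GME (-0.0575 to 0.0888) and VTC5 (-0.0521 to 0.0398).

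Same-numbered libraries did not deviate together in every pair of groups (correlations -0.15 to 0.17), so the numbers were not taken as pairs. Under low light each wild-type library was most like the atrx-2 library of its own number (0.09 to 0.14). Each wild-type library under normal light was likewise most like the low-light one of its own number (0.04 to 0.06). Between the light levels of atrx-2 no library was most like the one of its own number (-0.09 to 0.0075). The other pairs of groups were mixed. With the replicate block 11, 17 and 92 genes were called for genotype (normal light, low light, averaged), against 14, 15 and 64. A replicate block within light level gave 17, 14 and 93. VTC2 was highest in the library numbered 1 and lowest in the one numbered 3 in each of the 4 groups, and with the replicate block its change in wild type was -1.77 with an SE of 0.11 against 0.18. The block changed no call of the 6 genes.

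The number of all genes called, which sets the background, moved most for genotype. It was 14, 15 and 64 (normal light, low light, averaged) and became 58, 57 and 153 with DESeq2, 41, 26 and 100 with no filter, and 7, 9 and 41 with a filter of 5 CPM. Library totals moved the direction of the light calls: 3449 of 7113 were higher in wild type and 3353 of 6870 in atrx-2, against 1612 of 7834 and 1656 of 7073 with library totals. For genotype averaged over light 34 of 64 were higher, against 54 of 73. Under normal light it was 25 without organelle and ribosomal RNA loci, 28 with library totals and 8 with only the 6 libraries. The fewest calls came without wild-type normal-light replicate 1 (5), wild-type low-light replicate 2 (7) and atrx-2 low-light replicate 3 (31). For the interaction it was 1, and 0 to 3 over the alternatives.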
